A study of Mus musculus with 8 samples.

Results

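The Ube2 genes encode the ubiquitin-conjugating enzymes of the mouse, and their mRNA levels were compared here between young adult (6m) and aged (24m) brains. Members were all protein-coding genes whose annotated symbol starts with Ube2. This gave 38 of the 22430 genes listed in the count table, spread over 16 chromosomes with 3 on the X. Of these, 33 exceeded 5 counts in 4 or more libraries and were tested, among 16730 tested genes in all.

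Samples were brains of male C57Bl/6JRj mice, which carried no transgene or treatment: 4 animals of 6 months and 4 of 24 months. Labels name the tissue as whole brain and the protocol text as a brain hemisphere, with each library from a separate male. Polyadenylated RNA was made into directional libraries and read as paired ends. The groups differ by age alone as far as the labels state, and all neurons, glia, vessels and remaining blood of the tissue were pooled in each library.

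Ubiquitin is a small protein that is attached to other proteins to mark them for degradation by the proteasome or to alter their activity, location or partners. An activating enzyme (E1) charges it, a conjugating enzyme (E2) takes it over on a cysteine, and a ligase (E3) brings the charged E2 to the substrate. Related modifiers such as NEDD8, SUMO, ISG15 and FAT10 travel along parallel cascades with E2 enzymes of the same fold. The E2 often decides which kind of chain is built: K48-linked chains mostly lead to the proteasome, K63-linked chains to signalling and repair, and K11-linked chains to mitotic degradation. In neurons, which do not divide and must renew their proteins for life, these cascades serve protein quality control and the remodelling of synapses.

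Most E2 enzymes share a triad of histidine, proline and asparagine a few residues before the active-site cysteine, and this stretch shows how alike the members are. In the canonical coding sequences (GENCODE M39, GRCm39) the full triad, followed by a cysteine 5 to 9 residues on, was found in 23 of 38 members. In another 3, Ube2e1, Ube2e2 and Ube2e3, the proline was a cysteine, and in Ube2w the asparagine was a histidine. The search found no such stretch in 11 members, among them Ube2v1 and Ube2v2, which are known to lack the cysteine, and the called genes Ube2j1, Ube2j2 and Ube2z. Between triad and cysteine lay 7 residues in 25 members and 8 in 2, Ube2h and Ube2k. The stretches below are coding sequence read 5′ to 3′ on the gene's strand, shown for the 6 called genes that have one and for both variants of the triad, with the triad codons and the cysteine codon in capitals.
Ube2s: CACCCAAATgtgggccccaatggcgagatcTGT
Ube2srt: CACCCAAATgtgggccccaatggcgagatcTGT
Ube2m: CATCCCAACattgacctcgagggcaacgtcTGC
Ube2t: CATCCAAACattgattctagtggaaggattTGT
Ube2r2: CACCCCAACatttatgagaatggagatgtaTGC
Ube2h: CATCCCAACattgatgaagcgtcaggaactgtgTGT
Ube2e3: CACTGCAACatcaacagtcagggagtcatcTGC
Ube2w: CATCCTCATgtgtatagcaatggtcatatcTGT

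These lie in coding exons at chr7:4813478-4813510 (minus strand) for Ube2s, chr9:56345150-56345182 (plus) for Ube2srt, chr7:12770153-12770185 (minus) for Ube2m, chr1:134899034-134899066 (plus) for Ube2t, chr2:78749055-78749087 (plus) for Ube2e3 and chr1:16655593-16655625 (minus) for Ube2w. In Ube2r2 (chr4:41174110-41183259, plus) and Ube2h (chr6:30241408-30242556, minus) an intron interrupts the stretch. The Ube2s and Ube2srt stretches are the same, and over their whole coding sequences 668 of 669 bases were identical (99.9%), with a single substitution, G322A, counted from the first coding base with Ube2s given first. It changes the protein at G108S.

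Library totals were 63460940 to 103462414 counts, with 24m replicate 1 the deepest, and no pair of libraries of one age agreed within sampling noise. The first principal component (81.5% of the variance) separated the ages. On it 24m replicate 1 was at 9.09, the other 24m libraries at 29.1 to 37.6 and the 6m libraries at -33.6 to -19.8. On the second, 24m replicate 1 stood apart (at 22.3, the other 24m libraries at -10.7 to 1.40). Member values whose call, or whose side of the adjusted p threshold, changes without this replicate are therefore given both ways. Of the cell type markers, 5 of 5 blood genes (haemoglobins and Alas2) were called lower at 24m, with summed levels of 5426 to 7605 CPM at 6m and 1242 to 4156 at 24m. Neuronal markers summed to 3958 to 4378 CPM at 6m and 4533 to 4955 at 24m, with 4 of 10 called higher and 1 lower (7 and 0 with DESeq2 on quantile-normalized counts, and 0 lower under library totals, after GC removal or without 24m replicate 4). Summed endothelial markers were at 76.3 to 111 CPM and 45.9 to 70.7 CPM, with 2 of 8 called in each direction. Astrocyte markers (5 of 8 called higher, 1 lower), microglial markers (2 of 8 higher) and oligodendrocyte markers (1 of 8 higher) had sums that overlapped between the ages. Microglial calls became 1 without 6m replicate 1 or 4 or without 24m replicate 2, 3 or 4, and 4 with both trends removed. They were also 1 with quantile normalization, after GC removal or at an adjusted p of at most 0.01. Oligodendrocyte calls became 2 without 24m replicate 1 or 6m replicate 4, under library totals, with quantile normalization or after GC removal. With the length trend or both trends removed they became 3. No marker was at 0. Beside these marker counts, 25.3% of all tested genes were called higher and 18.3% lower. Fewer cells of a type and less RNA per cell cannot be told apart in these bulk libraries, and the part of cell composition in the results below was not tested.

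The Ube2 genes took a share of all counts that overlapped between the ages, 0.230% to 0.241% at 6m and 0.235% to 0.238% at 24m. On the TMM-scaled library sizes used for all values below, their summed level was 2511 to 2676 CPM at 6m and 2080 to 2364 CPM at 24m, lower in every 24m library. Which members supplied it differed: Ube2m and Ube2s together held 28.03% to 32.3% of the Ube2 counts at 6m and 16.4% to 24.5% at 24m. Levels here are counts scaled to library size (CPM), with library sizes adjusted by trimmed mean of M values (TMM) factors. A gene was called at an edgeR adjusted p (padj) of at most 0.05 and an absolute log2FC of at least 0.58. On this rule 3 Ube2 genes rose (Ube2h, Ube2j1 and Ube2z) and 6 fell (Ube2srt, Ube2s, Ube2m, Ube2t, Ube2r2 and Ube2j2). The 9 called genes were 27.3% of tested members, against 43.6% of all tested genes called in either direction. Called higher were 9.09% of members against 25.3% of all genes, and called lower 18.2% against 18.3%. Without the fold threshold 20 members (60.6%) reached the adjusted p, against 62.6% of all genes, and the libraries of the ages did not overlap in 20 members (60.6%), against 55.2%. The median log2FC of the members was -0.13 under TMM scaling, where that of all genes was -0.003, but 0.089 when counts were scaled by library totals alone, which moved all genes to a median of 0.21. Under library totals 8 members were called higher and 2 lower. None of the 9 called members changed direction under either scaling or under any other alternative run.

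**Figure D1:**
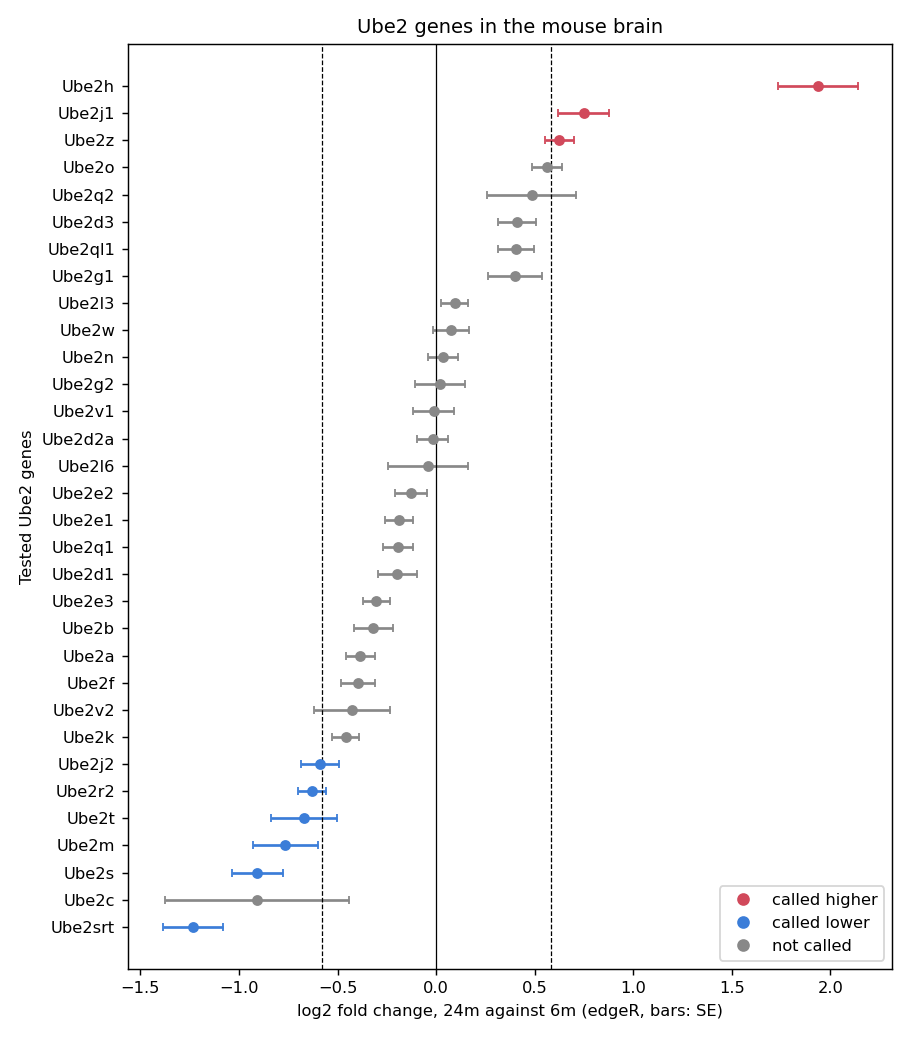
The log2FC of 24m against 6m is plotted for 32 of the 33 tested Ube2 genes (points, bars are SE from edgeR), with dashed lines at the fold threshold of 0.58 in each direction. Ube2h stands far to the right at 1.93, 6 genes called lower lie beyond the left line, and Ube2c, at -0.91, has the widest bar and was not called.

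Of the 33 tested members the largest rise was that of Ube2h, which works with the CTLH ligase complex and is known from red cell maturation. It lies at chr6:30211288-30304564. Its levels were 4.19, 6.11, 4.71 and 4.60 CPM in 6m replicates 1 to 4 and 13.1, 17.4, 19.6 and 24.96 CPM in 24m replicates 1 to 4. Every 24m library was above every 6m library, and the log2FC was 1.93 ± 0.20 (SE, n = 4 per age, edgeR padj = 7.78e-05). Leaving out any 1 library gave 1.77 to 2.08. Of its ligase partners, picked after their values were seen, Rmnd5a had a log2FC of 2.15 ± 0.27 (padj = 0.000176) and Maea 0.33 ± 0.078 (padj = 0.00457, under the fold threshold). The blood genes were called lower, as given above, and the part of blood content in the Ube2h values was not tested.

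Chain building for the proteasome and for quality control at the endoplasmic reticulum (ER) held 6 members, of which 1 rose, 2 fell and 3 were not called (median log2FC -0.22). Both E2 enzymes anchored in the ER membrane were called, in opposite directions. Ube2j1 (chr4:33031369-33052363) was at 19.6, 25.7, 24.5 and 21.8 CPM in the 6m libraries and at 32.7, 36.4, 38.2 and 46.6 CPM in the 24m libraries. The ages did not overlap, and its log2FC was 0.75 ± 0.13 (padj = 0.00093), which dropped under the fold threshold with the GC trend removed (0.49).

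Ube2j2 (chr4:156028143-156044975) was at 79.4, 71.1, 72.9 and 81.7 CPM at 6m and 58.6, 49.6, 48.7 and 45.7 CPM at 24m. Here every 24m library was the lower one, with a log2FC of -0.59 ± 0.096 (padj = 0.000687). That value sits at the fold threshold: leaving out replicate 1 or replicate 4 of 6m gave -0.57 and -0.56, leaving out replicate 3 or replicate 4 of 24m gave -0.57 and -0.54, and each time the call was lost. It was also lost under library totals (-0.38), with DESeq2 after quantile normalization (-0.47), without a filter on low counts (-0.58) and with counts thinned to the smallest library (-0.57). In these libraries the Ube2j1 to Ube2j2 ratio of CPM moved from 0.246 to 0.361 at 6m to 0.558 to 1.02 at 24m.

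Ube2r2, which extends K48 chains on the substrates of cullin-RING ligases, had some of the tightest values. Its 6m libraries were at 79.0, 74.3, 79.8 and 82.8 CPM and its 24m libraries at 51.0, 50.2, 50.5 and 52.4 CPM. The ages were far apart relative to their spread, and the log2FC was -0.63 ± 0.070 (padj = 0.000104, chr4:41135460-41193401), though -0.41 under library totals and -0.50 with DESeq2 on quantile-normalized counts, where the call was lost. Ube2k, which also builds K48 chains, had a log2FC of -0.46 ± 0.069 (padj = 0.000442) and Ube2g1 one of 0.40 ± 0.14 (padj = 0.0287), both under the fold threshold. Ube2k was called lower after GC removal (-0.74), with the length trend removed (-0.77) and with both trends removed (-0.9). Ube2g1 was called higher under library totals (0.62) and was at 0.11 after GC removal. Ube2g2, an ER quality control enzyme, was at 0.02 ± 0.13 (padj = 0.911), but at 0.41 and past the adjusted p with both trends removed. Among the ER ligases, picked after their values were seen, Marchf6 had a log2FC of 1.91 ± 0.28 (padj = 0.000417) and Syvn1 0.54 ± 0.082 (padj = 0.000502, under the fold threshold).

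Enzymes for ubiquitin-like modifiers were 5, with 1 higher, 1 lower and 3 not called (median log2FC -0.04). Ube2z receives ubiquitin and FAT10 from the activating enzyme Uba6. Its levels were 48.7, 52.7, 52.4 and 55.8 CPM at 6m and 85.0, 80.5, 80.3 and 77.5 CPM at 24m, so that no libraries overlapped. The log2FC was 0.63 ± 0.075 (padj = 0.000146, chr11:95937207-95956244), while Uba6, picked after its value was seen, had 0.69 ± 0.31 (padj = 0.0775). With the GC trend removed the log2FC of Ube2z was 0.51 and with both trends removed 0.56, under the fold threshold. On the other strand Ube2z overlaps Snf8, whose transcripts hold 18.4% of the read-length stretches of Ube2z and whose log2FC was -1.21, in the opposite direction.

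Ube2m hands NEDD8 to cullins, which switches cullin-RING ligases on. It was at 496, 453, 461 and 564 CPM in the 6m libraries and at 395, 279, 267 and 221 CPM in the 24m libraries. No 24m library reached the lowest 6m library, and 24m replicate 1 was nearest to it. The log2FC was -0.77 ± 0.17 (padj = 0.003, chr7:12769047-12772249), and -0.94 without 24m replicate 1. Its size depended on the processing: it was -0.56 with library totals, -0.47 with the GC trend removed, -0.43 with DESeq2 on quantile-normalized counts, -0.41 with the length trend removed and -0.26 with both trends removed, and the call was lost in each.

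Ube2f, the other NEDD8 enzyme, had a log2FC of -0.40 ± 0.087 (padj = 0.00328, under the fold threshold). The other genes of the NEDD8 cascade, picked after their values were seen, were Nedd8 itself at -0.98 ± 0.17 (padj = 0.000807), the ligase subunit Rbx1 at -0.87 ± 0.15 (padj = 0.000951), Rnf7 at -0.50 ± 0.089 (padj = 0.00111), the activating subunit Nae1 at -0.50 ± 0.10 (padj = 0.00242) and its partner Uba3 at 0.27 ± 0.20 (padj = 0.259). Thus Nedd8, Ube2m and Rbx1 were called lower, Nae1, Ube2f and Rnf7 passed the adjusted p below the fold threshold and Uba3 did not pass. Ube2l6, which conjugates ISG15, was at -0.04 ± 0.20 (padj = 0.872). Of its cascade, picked after their values were seen, Isg15 was at -0.06 ± 0.26 (padj = 0.863) and the activating enzyme Uba7 at 0.16 ± 0.24 (padj = 0.584). Of 10 interferon-stimulated genes 7 were called higher, against 25.3% of all tested genes, and none lower. Among them Oasl2 was at 1.52 and Usp18 at 1.34, while Irf7, Bst2 and Ifitm3 were not called.

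Both E2 enzymes of the anaphase-promoting complex had negative values, and 1 of 2 was called. Ube2s, which extends K11 chains on its substrates, was at 293, 253, 262 and 299 CPM at 6m and 184, 144, 141 and 121 CPM at 24m. The ages did not overlap and the log2FC was -0.91 ± 0.13 (padj = 0.00033, chr7:4795621-4815589). Ube2srt, a single-exon copy (chr9:56344741-56345728), was at 113, 97.2, 98.0 and 106 CPM at 6m and 59.1, 41.9, 40.8 and 34.2 CPM at 24m. Its log2FC was -1.23 ± 0.15 (padj = 0.000179), also without overlap, and -1.40 without 24m replicate 1. With the length trend removed it was -0.53 and with both trends removed -0.42, under the fold threshold.

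Of 1088 read-length stretches of the Ube2s transcript, 669 also occur in Ube2srt and 244 in the overlapping non-coding RNA Gm57202 (83.9% in all), and 79.8% of those of Ube2srt occur in Ube2s, so that their separate values are uncertain. With the counts of both summed, an alternative chosen after seeing the data, the log2FC was -0.99 (padj = 0.000266). Ube2c, which starts the chains that Ube2s extends and is a marker of dividing cells, stayed under 1 CPM in all libraries, at 0.518 to 0.863 CPM at 6m and 0.103 to 0.685 CPM at 24m. Its log2FC of -0.91 ± 0.47 was not called (padj = 0.114), but without 24m replicate 1 it was -1.57 (padj = 0.00175). Of 10 proliferation genes 4 were called lower, against 18.3% of all tested genes, and none higher, with Plk1 at -0.95 ± 0.20 (padj = 0.00255). Only 1 was called lower at an adjusted p of at most 0.01 or with a filter of 1 CPM in 4 libraries.

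**Figure D2:**
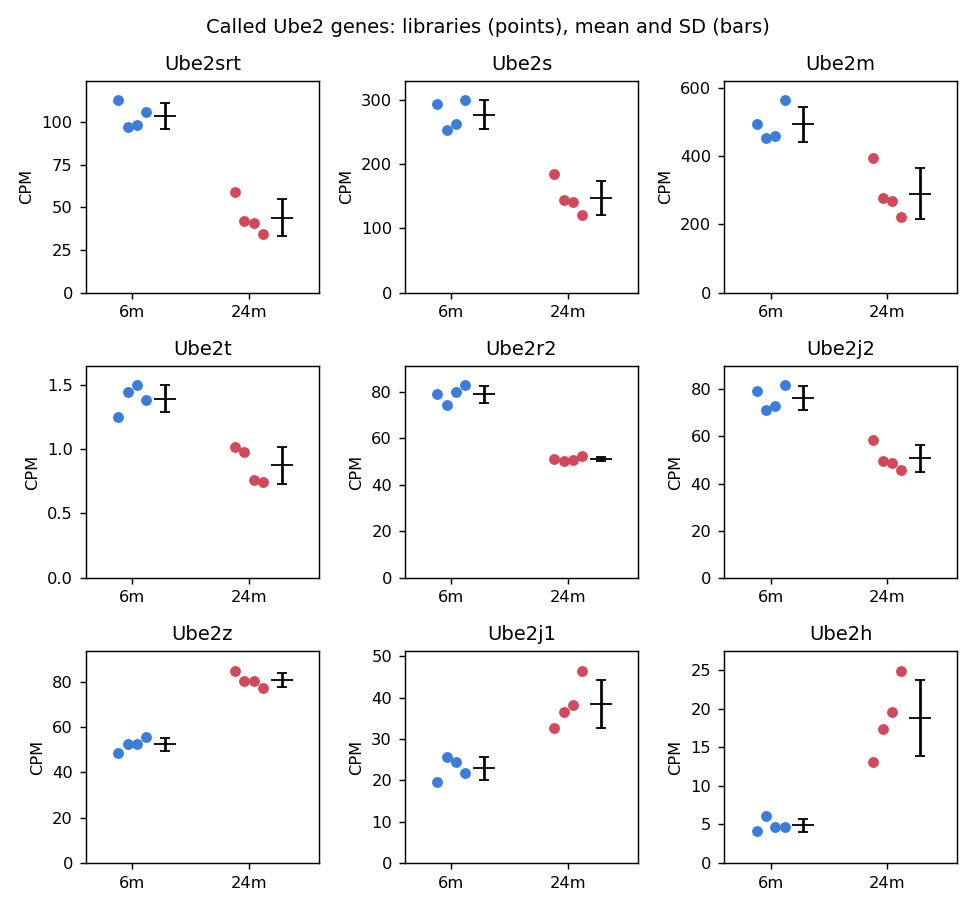
Each panel shows CPM (axis from 0) for 1 of the 9 called Ube2 genes in the 4 libraries of 6m (blue) and of 24m (red), with mean and SD beside the points. In no panel do the ages overlap, and in 7 of the 9 the first 24m point, replicate 1, lies nearest the 6m mean.

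Among the chromatin and DNA damage enzymes 1 of 3 fell, and the other 2 passed the adjusted p under the fold threshold. Ube2t, which works with Fancl in the repair of DNA crosslinks, was low throughout, at 1.25, 1.44, 1.49 and 1.38 CPM in the 6m libraries and 1.01, 0.974, 0.757 and 0.745 CPM in the 24m libraries. The ages did not overlap, and the log2FC was -0.67 ± 0.17 (padj = 0.00612, chr1:134890275-134903457), and -0.46 under library totals, where the call was lost. Its partner Fancl, picked after its value was seen, had a log2FC of -0.62 ± 0.12 (padj = 0.00141). The paralogs Ube2a and Ube2b, which ubiquitinate histone H2B with Rnf20 and Rnf40 and PCNA with Rad18, had log2FC values of -0.38 ± 0.074 (padj = 0.00159) and -0.32 ± 0.098 (padj = 0.0168). Of these ligases, also picked afterwards, Rad18 was called higher at 1.05 ± 0.17 (padj = 0.000726), while Rnf20 was at -0.20 ± 0.12 (padj = 0.193) and Rnf40 at 0.21 ± 0.068 (padj = 0.0223). Ube2a was called lower after GC removal (-0.66) and Ube2b with both trends removed (-0.65). Their proteins are 95.4% identical, and their ratio overlapped between the ages, at 0.302 to 0.366 and 0.294 to 0.339.

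The starters of ubiquitin chains, which pair with many RING ligases, included no called gene among 7 tested (median log2FC -0.13), and 3 of them passed the adjusted p, the same number as had an unadjusted p under 0.05. DESeq2 and limma-voom called none either, while library totals called Ube2d3 higher (0.63) and removal of the length trend called Ube2e3 lower (-0.71). Ube2d3 was at 42.7, 49.0, 48.1 and 44.9 CPM at 6m and 52.6, 64.8, 60.7 and 67.6 CPM at 24m, without overlap, with a log2FC of 0.41 ± 0.097 (padj = 0.00467). Its direction held under TMM and library totals but turned to -0.29 with the length trend removed. The close paralogs Ube2d1 and Ube2d2a were at -0.20 ± 0.098 (padj = 0.104) and -0.02 ± 0.078 (padj = 0.858). Removing both the length and GC trends brought Ube2d2a to -0.57 and GC removal brought Ube2d1 to -0.35, both past the adjusted p and under the fold threshold.

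Within each library, the level of Ube2d1 relative to Ube2d3 was 0.45 to 0.521 at 6m and 0.313 to 0.326 at 24m, and that of Ube2d2a relative to Ube2d3 was 1.30 to 1.41 and 0.949 to 1.04. The Ube2d2a and Ube2d3 proteins are 96.6% identical. Ube2e3 had a log2FC of -0.30 ± 0.069 (padj = 0.00392), Ube2e1 one of -0.19 ± 0.071 (padj = 0.0424) and Ube2e2 one of -0.13 ± 0.081 (padj = 0.198, but 0.0482 without 24m replicate 1). With 1 library left out the adjusted p of Ube2e1 was as high as 0.112 (0.0567 without 24m replicate 1), and 45.3% of its read-length stretches also occur in Nkiras1 transcripts on the other strand. Ube2w, which attaches ubiquitin to the amino end of proteins, was at 0.08 ± 0.092 (padj = 0.488).

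Enzymes of K63 chains included no gene called by edgeR among 3, and none had an unadjusted p under 0.05. Ube2n, the catalytic partner, had a log2FC of 0.04 ± 0.076 (padj = 0.706). Ube2v1, a variant without the cysteine that directs Ube2n to K63, was at 171, 180, 172 and 193 CPM at 6m and 210, 175, 170 and 155 CPM at 24m. These overlapped, with a log2FC of -0.01 ± 0.10 (padj = 0.92), although 81.8% of its read-length stretches are shared with other transcripts, mainly the overlapping read-through gene Gm20431. Ube2v2, another such variant, was at -0.43 ± 0.19 (padj = 0.0771). It was called lower without 6m replicate 4 (-0.59), after GC removal (-0.68), with DESeq2 after quantile normalization (-0.67), after length removal (-0.88) and with both trends removed (-1.01).

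Large and atypical enzymes, with the partner of HECT and RING-between-RING ligases, had the highest median of the role groups (0.41 over 7 tested genes, among them Ube2h and Ube2srt). Ube2o, a large enzyme that acts as E2 and E3 in one protein, was at 117, 126, 131 and 125 CPM at 6m and 171, 181, 194 and 190 CPM at 24m. All 24m libraries were higher, and the log2FC of 0.56 ± 0.075 (padj = 0.000248) was just short of the fold threshold. Without 24m replicate 1 it was 0.61 and without 6m replicate 3 it was 0.59, and the gene was then called. It was also called under library totals (0.78), with DESeq2 after quantile normalization (0.78), after GC removal (0.77) and with both trends removed (0.60).

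Ube2ql1 was at 91.3, 111, 105 and 102.9 CPM at 6m and 119, 143, 146 and 135 CPM at 24m, also without overlap, with a log2FC of 0.41 ± 0.093 (padj = 0.00404, under the fold threshold). It was called higher under library totals (0.63), after GC removal (0.65) and with DESeq2 after quantile normalization (0.60). Its relative Ube2q1 was at 131, 135, 131 and 140 CPM at 6m and 124, 118, 121 and 107 CPM at 24m, with a log2FC of -0.19 ± 0.074 (padj = 0.0434). That small difference had no overlap between the ages, and it turned to 0.02 under library totals. Ube2q2 had a log2FC of 0.48 ± 0.22 (padj = 0.0835) and was called without 24m replicate 1, at 0.66 (padj = 0.00515), without 6m replicate 2, at 0.62 (padj = 0.047), and under library totals, at 0.71 (padj = 0.0398). Ube2l3, which serves Parkin and HECT ligases, was at 75.2 to 79.3 CPM and 80.3 to 86.7 CPM, with a log2FC of 0.10 ± 0.068 (padj = 0.246).

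The 5 members that were not tested had few or no counts. Ube2dnl1 and Ube2q2l had 0 in all libraries, Ube2d2b had 1 count in 24m replicate 3, Ube2dnl2 had 1 in 6m replicate 4 and Ube2u had at most 9 in any library.

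**Figure D3:**
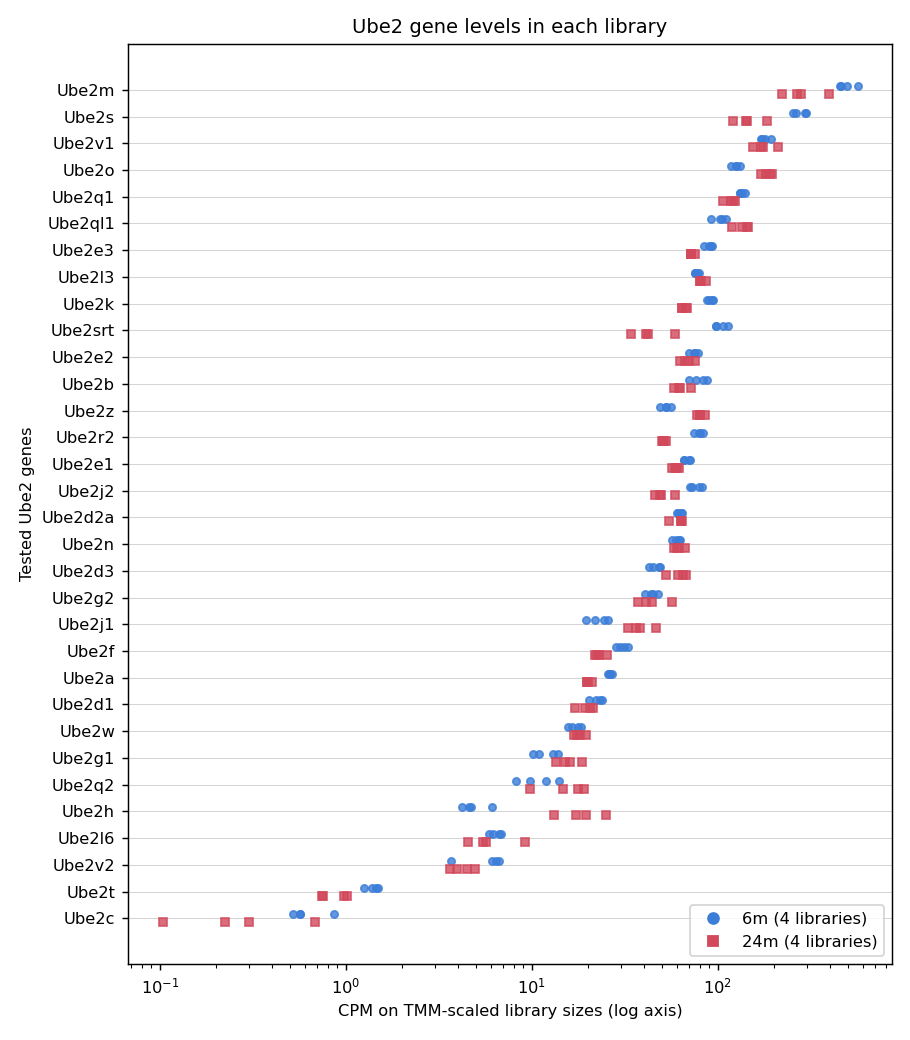
CPM of 32 of the 33 tested Ube2 genes (log axis) is shown for the 4 libraries of 6m (circles) and of 24m (squares), sorted by mean level. Without regard to length, the family spans from under 1 CPM (Ube2c) to a mean of 391.9 CPM (Ube2m), and 20 of 33 members averaged over 50 CPM.

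To compare members with each other, levels were divided by the length of the canonical transcript. On this CPM per kilobase scale Ube2m came first at both ages (301 at 6m and 177 at 24m), followed by Ube2s (223 and 119). Ube2srt was in the third place at 6m (105) and the fifth at 24m (44.6), behind Ube2v1 (94.3 and 93.4) and Ube2ql1 (38.4 and 50.8). Ube2t and Ube2c had the lowest levels, at 0.519 and 0.649 at 6m. The place of Ube2s rests on its short canonical transcript, and over all annotated exons it was at 37.0 at 6m, in the fourth place. Ube2h rose from 1.05 to 4.01, from the place next to the lowest pair to that beside Ube2g1 (4.05) and Ube2f (3.97).

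Pairs of related members were compared within libraries, which cancels the scaling. They were picked after their values were seen, and 18 pairs were tested by exact permutation over the 70 splits of 8 libraries, where the smallest two-sided p is 0.0286. The ages did not overlap in 8 pairs, all at that smallest p, and no pair passed adjustment over the 18 (adjusted p = 0.0644 for these 8). That adjusted value is fixed by the smallest p and the number of pairs at it. Given also the late choice of pairs, the test cannot decide whether any ratio changed. Taken as single genes, 55.2% of all tested genes did not overlap between the ages. The log2 ratio of Ube2j1 to Ube2j2 differed by 1.34 between 24m and 6m, that of Ube2g1 to Ube2r2 by 1.03, that of Ube2n to Ube2t by 0.72 and that of Ube2d1 to Ube2d3 by -0.61. Smaller differences were found for Ube2d2a to Ube2d3 (-0.43), Ube2s to Ube2srt (0.34), Ube2d1 to Ube2d2a (-0.18) and Ube2e2 to Ube2e3 (0.17).

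The rest of the pathway was described from lists of E1 enzymes, conjugating enzymes with other names, modifiers and ligases. None of 9 E1 enzymes was called by edgeR (3 with an unadjusted p under 0.05; median log2FC 0.10) and none by DESeq2 or limma-voom, though 2 were called higher under library totals, 1 was called higher without 24m replicate 1, 2 were called lower with the length trend removed and 1 lower with the GC trend removed. Among 9 other conjugating enzymes and variants, Uevld rose (1.57 ± 0.22, padj = 0.000308), Ufc1, the E2 of UFM1, fell (-0.92 ± 0.14, padj = 0.00043) and Cdc34, a relative of Ube2r2, fell (-0.89 ± 0.16, padj = 0.00105). The 1 called higher became 2 without 24m replicate 1 and under library totals, and the 2 called lower became 4 with the GC trend removed and 1 with the length trend removed. Of 11 ubiquitin and ubiquitin-like genes 4 were called lower, against 18.3% of all tested genes, and none higher (median -0.40). Under library totals 3 were lower, and 1 was higher with DESeq2 on quantile-normalized counts or with the length trend removed. Among those called lower were Nedd8 and Rps27a, which encodes ubiquitin fused to a ribosomal protein, at -1.08 ± 0.20 (padj = 0.00124).

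Ligases that work with Ube2 enzymes had 15 of 32 genes called higher and 5 lower, beside background shares of 25.3% and 18.3%. Their median log2FC was 0.51 against -0.003 for all tested genes. Those with the largest changes were Xiap (2.73 ± 0.37, padj = 0.000248), Nedd4 (2.45 ± 0.29, padj = 0.000146) and Rmnd5a. Of the 5 called lower, Rbx1, Fancl and Anapc11 belong to complexes served by Ube2m, Ube2t and Ube2s, and the others were Stub1 and Ube3a. These 5 genes were picked after their values were seen.

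**Figure D4:**
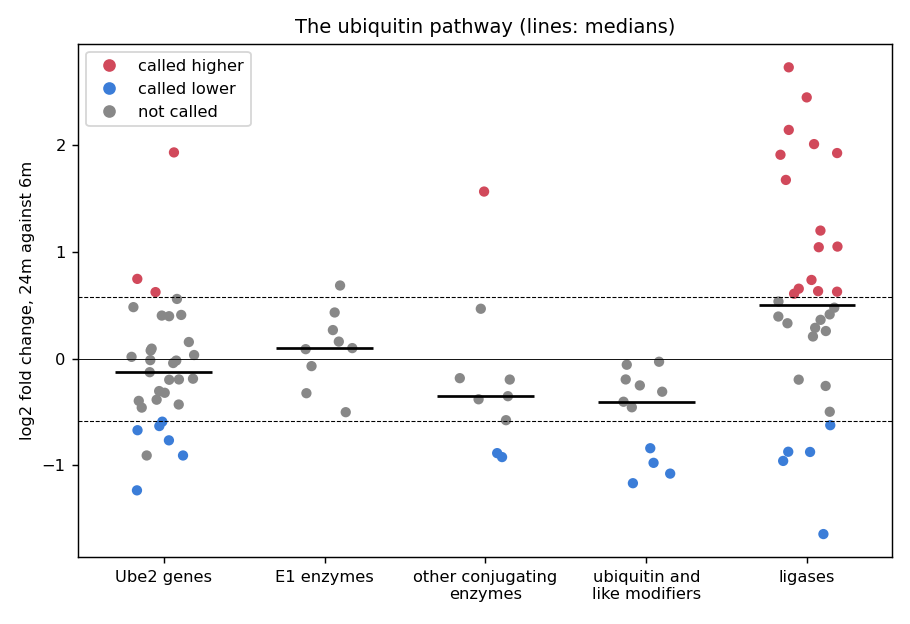
Each point is the log2FC of 24m against 6m of 1 tested gene, in 5 groups of the ubiquitin pathway, with the median of each group as a line and the fold threshold of 0.58 dashed. Medians were -0.13 for Ube2 genes, 0.10 for E1 enzymes, -0.35 for other conjugating enzymes, -0.40 for modifiers and 0.51 for ligases.

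Fold changes in these libraries moved with transcript length. Across all tested genes with a length, Spearman's rho between log2FC and canonical transcript length was 0.56 (n = 16677 genes), and across the 33 members 0.35. With exonic length, the union of all annotated exons, it was 0.42 over all genes and 0.08 over the members. Genes are not independent replicates, and all points share the same 8 libraries, so these are descriptions. The 3 genes that rose had canonical transcripts of 3568 to 5048 bases. The 6 that fell ranged from 988 to 4253 bases, with Ube2srt, Ube2s and Ube2m at the short end and Ube2r2 and Ube2j2, at 3855 and 4253 bases, as long as genes that rose. The trend removed as an alternative was that over exonic length, after which rho with exonic length was 0 and with canonical length 0.27 over all genes. Across the 33 members rho with exonic length went from 0.08 to -0.43 with that removal. In that fit 3 members were called higher and 8 lower, and the median of the members was -0.32. Ube2srt and Ube2m lost their calls there, while Ube2k (-0.77), Ube2f (-0.97), Ube2e3 (-0.71) and Ube2v2 (-0.88) gained one. The part of RNA integrity or library preparation in this relation was not tested.

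**Figure D5:**
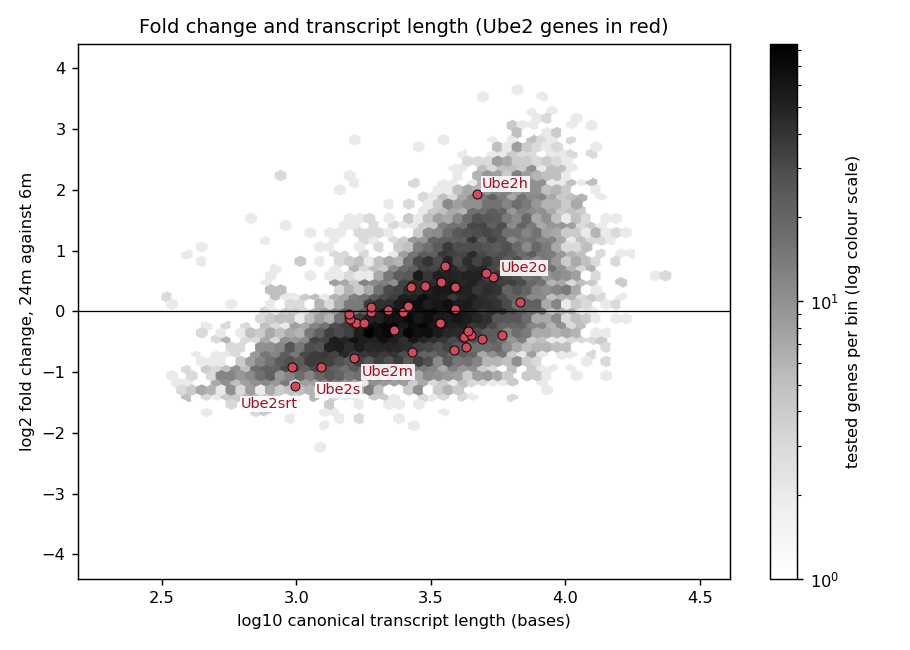
The log2FC of 24m against 6m is plotted against log10 canonical transcript length in bases, with all tested genes as grey bins (darker for more genes, 29 genes outside the axes not drawn) and the 33 Ube2 genes as red points. The grey cloud rises with length (rho 0.56), and the members lie within it (rho 0.35), from Ube2srt at the lower left to Ube2h at the top.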

How the data were processed

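Poly(A) RNA sequencing counts of 8 mouse brain libraries were used. The authors trimmed reads (Trim Galore 0.4.11), aligned them to GRCm39 (HISAT2 2.1.0) and counted them over Ensembl genes with featureCounts. The deposited values are raw whole-number counts for each library, without normalization or pooling. Settings for strand and multimapping reads were not given in the sources used here, so paralogs and genes that overlap (34 of 38 members overlap another annotated gene, 28 on the other strand) have uncertain values. Symbols came from GENCODE M39, and the 149 listed genes without a match held 0.312% of counts. The Ube2 genes and all lists were chosen with earlier results of these data known.

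Genes exceeding 5 counts in 4 or more libraries were tested with edgeR 4.0.16 (R 4.3.3), using TMM factors and a model of age alone, with Benjamini-Hochberg adjustment over all 16730 genes. SE was the log2FC over the square root of F. Thresholds (0.05 and 0.58) were those of the study. p-values measure the spread between separate animals. Values in every library are given for called members with a mean of at least 1 CPM and for the 4 uncalled members with the highest mean, and of each pathway list the 3 called genes with the largest change and a mean of at least 1 CPM are named. Genes named beyond this rule are said to be picked after their values were seen, as was Ube2d3. A few genes that these rules name, 1 of them a member, are not reported here. On simulated counts (16730 genes, of which 200 had a log2FC of 1 in either direction) 76% of the changed genes were recovered and 5 unchanged genes were called. Far fewer genes changed there than the 43.6% called in the data, so these rates need not hold for the data. Alternatives were other scalings, DESeq2 1.42.0, limma-voom (limma 3.58.1), filters, thresholds, trends over exonic length and GC content removed, thinning, libraries left out and a replicate block. Library totals of at least 63460940 counts leave counting error small for all but the lowest genes.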

Additional observations from a re-analysis of the deposited data

Results flagged for a closer look

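Of 68 groups of 4 libraries examined, those of the tested Ube2 genes and of the Ube2 share of counts at each age, 4 held 1 library far from the other 3, where chance gives about 1 in 20. Ube2c was at 0.863 CPM in 6m replicate 4, above 0.518 to 0.566 CPM in the other 6m libraries. Ube2d2a was at 54.8 CPM in 24m replicate 1, below 63.2 to 64.1 CPM in the others of that age. Ube2e3 was at 75.2 CPM in 24m replicate 1, above 71.7 to 72.1 CPM. Ube2l3 was at 86.7 CPM in 24m replicate 4, above 80.3 to 80.9 CPM.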

How the results depend on the processing

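Of 823 values set against 25 alternatives, 712 kept their direction and side of the threshold, 23 lost a call, 44 gained one and 44 changed sign. All sign changes were in 13 members that were not called, and Ube2h and Ube2s kept their call throughout. The causes were not tested. Members called higher were 3, and 8 under library totals, 5 with DESeq2 on quantile-normalized counts, 7 without the fold threshold and 3 to 5 with 1 library left out (5 without 24m replicate 1). Members called lower were 6, and 2, 4, 13 and 5 to 7. The median of -0.13 became 0.089 under library totals, -0.034 with quantile normalization, -0.32 with length, -0.25 with GC and -0.31 with both trends removed. Without mitochondrially encoded genes the Ube2 share of counts was 0.252% at 6m and 0.244% at 24m.

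Sign changes were as follows. Library totals gave Ube2d1 0.02, Ube2d2a 0.20, Ube2e1 0.03, Ube2e2 0.09, Ube2l6 0.16, Ube2q1 0.02 and Ube2v1 0.20. Quantile normalization gave Ube2d2a 0.13, Ube2e2 0.03, Ube2v1 0.21 and Ube2w -0.03. GC removal gave Ube2l3 -0.11, Ube2n -0.25, Ube2v1 0.12 and Ube2w -0.14. Length removal gave Ube2d3 -0.29, Ube2l3 -0.12, Ube2l6 0.24, Ube2v1 0.05 and Ube2w -0.47. Removing both gave Ube2d3 -0.30, Ube2l3 -0.19, Ube2l6 0.21, Ube2n -0.08, Ube2v1 0.14 and Ube2w -0.54. With single libraries left out, Ube2d2a was at -0.04 to 0.04, Ube2g2 at -0.10 to 0.10, Ube2l6 at -0.28 to 0.08, Ube2n at 0 to 0.07 and Ube2v1 at -0.09 to 0.05. The highest adjusted p of edgeR in these fits was 0.0572 for Ube2b, 0.0808 for Ube2g1, 0.112 for Ube2e1 and 0.0994 for Ube2q1, so these 4 members missed that threshold in some of them.

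The same replicate numbers at both ages share only a number: correlations of same-numbered deviations were -0.35 to 0.27, and 1 of 4 libraries of 6m correlated best with its own number. A replicate block left 3 members called higher and 6 lower (median -0.13). With the block and the length trend removed the median was -0.34, and Ube2d3 was at -0.31, Ube2l3 at -0.12, Ube2l6 at 0.21, Ube2v1 at 0.05 and Ube2w at -0.49. Depth limits Ube2c and Ube2t most, at about 1 CPM or less.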
